A study of Mus musculus with 40 samples.

Results

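The kidney makes the parts of a pair of opposing peptide systems that act on blood pressure and salt handling, and 7 of their genes were followed here across TCDD doses. The genes were taken as a list of symbols and matched to the count tables by Ensembl identifier, and all 7 were among the 55359 identifiers of the tables and among the 17345 genes with enough reads to be tested. They were Agt (ENSMUSG00000031980), Ren1 (ENSMUSG00000070645), Klk1 (ENSMUSG00000063903), Ace (ENSMUSG00000020681), Mme (ENSMUSG00000027820), Agtr1a (ENSMUSG00000049115) and Bdkrb2 (ENSMUSG00000021070). Right kidneys came from 40 male C57BL/6 mice, 5 per group, given sesame oil alone (vehicle) or TCDD in it at 0.03, 0.1, 0.3, 1, 3, 10 or 30 µg/kg. TCDD is a long-lived dioxin that binds and activates the aryl hydrocarbon receptor (AhR), which then drives transcription of its target genes. The mice carried no stated genetic change, were dosed by mouth every 4 days for 28 days and were 58 days old at the end. Each library is 1 mouse, from about 100 mg of whole kidney, so a lower level of a transcript may come from fewer cells of a type or from less RNA per cell, and these cannot be told apart.

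In the renin-angiotensin system, renin, a protease released by juxtaglomerular cells of the afferent arteriole, cuts angiotensinogen, and angiotensin-converting enzyme trims the product to angiotensin II, which acts on the type 1 receptor to constrict vessels and retain sodium. In the kallikrein-kinin system, tissue kallikrein, made mainly in the connecting tubule, releases kinins from kininogen, and kinins act on the B2 receptor to dilate vessels and promote sodium excretion. Angiotensin-converting enzyme also destroys kinins, and neprilysin (Mme), on the proximal tubule brush border, cleaves peptides of both systems.

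Of the 7 genes, Klk1 and Ace fell, and they did so at the highest doses. Klk1, the tissue kallikrein gene, fell at 10 and at 30 µg/kg, and Ace fell at 30 µg/kg. No fall or rise of Agt, Ren1, Mme, Agtr1a or Bdkrb2 passed the test at any dose or as a trend over doses.

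The promoters of Klk1 and Ace, the genes that fell, are shown with that of Bdkrb2, the receptor of the peptide that Klk1 releases, so that the letters around their starts can be read beside the values. Each runs 5′ to 3′ from 250 bases before to 20 bases after the RefSeq start site (GRCm38.p6). Capitals mark a match on either strand to any of 3 motifs that were searched. The core of the AhR response element is GCGTG. A steroid receptor half-site is TGTTCT. The TATA box is TATAAA.
Klk1, chr7:44225110-44225379, plus strand: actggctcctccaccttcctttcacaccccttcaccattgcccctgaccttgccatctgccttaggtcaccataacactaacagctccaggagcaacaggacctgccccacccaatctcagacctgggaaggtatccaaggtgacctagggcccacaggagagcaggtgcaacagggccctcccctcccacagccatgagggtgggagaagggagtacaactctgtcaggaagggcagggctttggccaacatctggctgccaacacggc
Ace, chr11:105967698-105967967, plus strand: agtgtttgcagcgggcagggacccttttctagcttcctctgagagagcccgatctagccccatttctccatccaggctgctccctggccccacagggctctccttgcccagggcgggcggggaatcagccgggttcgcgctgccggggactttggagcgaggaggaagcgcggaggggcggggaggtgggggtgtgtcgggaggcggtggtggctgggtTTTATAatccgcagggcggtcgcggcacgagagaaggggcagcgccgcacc
Bdkrb2, chr12:105562922-105563191, plus strand: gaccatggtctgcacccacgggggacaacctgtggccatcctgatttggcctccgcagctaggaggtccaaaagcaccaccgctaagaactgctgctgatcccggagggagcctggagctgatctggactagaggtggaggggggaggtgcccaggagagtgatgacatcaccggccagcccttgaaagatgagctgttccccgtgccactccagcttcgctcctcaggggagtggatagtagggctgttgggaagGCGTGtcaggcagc
The AhR core began at position 7 after the start of Bdkrb2 and was in neither of the others. Of the 27025 genes with a promoter in the table, 30.0% held it in the same window. The TATA box was read on the opposite strand at position -31 of the Ace start site shown, and 13.4% of promoters held it. The steroid half-site was in none of the 3 windows and in 17.4% of promoters, and the Klk1 window held none of the 3 motifs. Ace has 2 start sites in the table, and the window of the other, within the gene, held none of the 3 motifs either. The Ren1 and Agt windows held a TATA box at positions -29 and -30 and no AhR core. Of the 3 start sites of Mme, 1 held the AhR core, at position -28. Agtr1a was not matched. These are matches of letters, not measured binding.

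Levels are given in CPM, the reads of a gene relative to all reads assigned to genes in that library, scaled by the TMM factors of edgeR. Libraries held 15278423 to 25575317 gene counts. Cyp1a1, the standard AhR target gene, read 1.15 to 4.0 CPM in the vehicle libraries, 1309 to 1652 CPM at 10 µg/kg and 2074 to 2996 CPM at 30 µg/kg. Vehicle replicates 1 and 2 stood apart from the other 3 vehicle libraries. Their summed level of 4 genes of the late proximal tubule (S3 segment: Slc7a13, Cyp7b1, Slc22a7 and Slc5a8) was 559.7 and 638.5 CPM, against 1459 to 1606 CPM in replicates 3 to 5. Slc12a1, the salt transporter of the thick ascending limb, was also lowest there, at 369.2 and 379.6 CPM against 843.9 to 1361 CPM. Adrenal tissue genes marked 2 more libraries. The first mouse at 0.03 µg/kg (replicate 1) and the fourth at 1 µg/kg (replicate 4) carried adrenal cortex genes at 581.7 and 623.7 summed CPM, against 3.2 to 34.8 CPM in the other 38 libraries. Both pairs are named below where a result touches them.

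Per kilobase of exon in vehicle kidneys, Klk1 was the highest of the 7 at 1662 CPM per kb ± 222.3 (SD, n = 5). Ace followed at 34.2 ± 16.2, Agt at 29.1 ± 16.0, Ren1 at 19.7 ± 10.1, Agtr1a at 16.3 ± 1.35 and Mme at 12.5 ± 3.99 CPM per kb. Bdkrb2 was the lowest at 0.267 ± 0.0939 CPM per kb. The ranges of neighbouring genes from Ace to Mme overlapped, so their order was not resolved, while Klk1 and Bdkrb2 lay clear of the rest. At 30 µg/kg the order below Klk1 changed, with Ace at 15.0 ± 5.06 CPM per kb, level with Agtr1a at 16.0 ± 3.01.

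**Figure D1:**
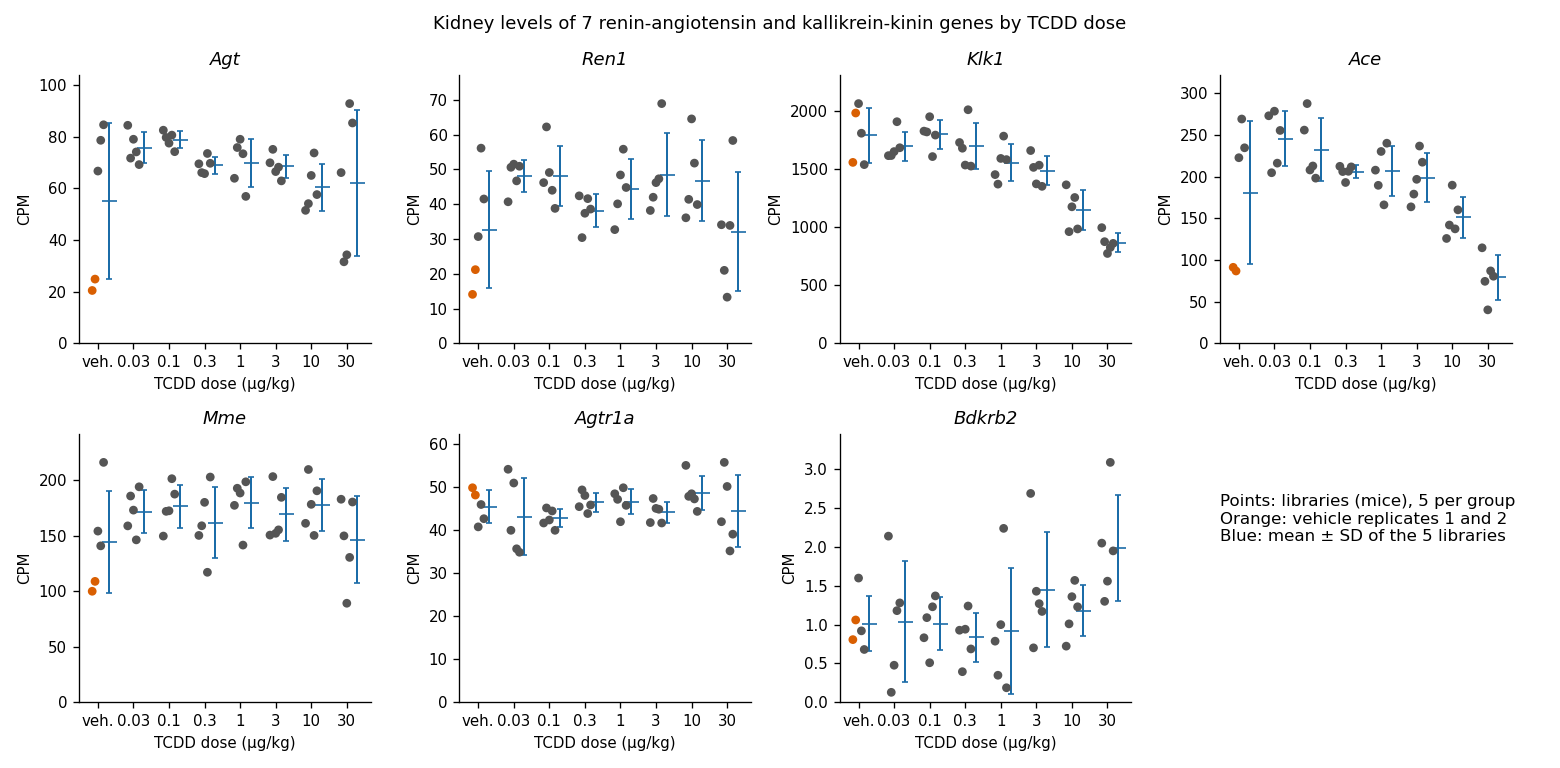
CPM of each gene (y axis, linear from 0) in all 40 libraries by dose (x axis, µg/kg), with points for single mice, orange points for vehicle replicates 1 and 2, and blue bars for the mean ± SD of 5. Klk1 at 10 and 30 µg/kg lies wholly below vehicle, Ace at 30 µg/kg overlaps only those 2 vehicle libraries, and the other 5 genes overlap vehicle at every dose.

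Klk1 encodes the protease that starts the kinin branch. The vehicle libraries read 1558, 1983, 2064, 1809 and 1539 CPM. At 3 µg/kg they read 1660, 1515, 1373, 1534 and 1352 CPM. At 10 µg/kg they read 1365, 962.1, 1176, 1256 and 985.4 CPM, and at 30 µg/kg 996.5, 875.8, 774.4, 826.1 and 861.2 CPM. Every library at 10 and at 30 µg/kg was below the lowest vehicle library, and the 2 dose groups overlapped only through the 996.5 CPM of replicate 1 at 30 µg/kg. From 0.03 to 1 µg/kg the 20 libraries read between 1371 and 2011 CPM, and each group overlapped the vehicle range. Below the lowest vehicle library lay 2 of 5 libraries at 0.3, 2 of 5 at 1 and 4 of 5 at 3 µg/kg.

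The fitted log2 fold change of Klk1 was -0.64 ± 0.09 (SE) at 10 µg/kg (adjusted p = 2.69e-06) and -1.05 ± 0.09 at 30 µg/kg (adjusted p = 2.87e-11; edgeR quasi-likelihood test, Benjamini-Hochberg over all genes). It was -0.20 ± 0.09 at 1 µg/kg (adjusted p = 0.642) and -0.27 ± 0.09 at 3 µg/kg (adjusted p = 0.206), which did not pass. At 10 µg/kg 1 of the 7 genes, Klk1, was called, where 4.82% of all genes were called, 3.82% higher and 0.997% lower. Over the 8 dose ranks the slope was -0.13 ± 0.02 per step (adjusted p = 3.12e-08). Klk1 was also lower at 30 than at 10 µg/kg, by a log2 difference of -0.41 ± 0.09 (adjusted p = 0.00746). That last call ended without replicate 1 at 10 µg/kg (-0.34, adjusted p = 0.0523) and in a fit of those 2 groups alone (-0.40, adjusted p = 0.285). Without vehicle replicates 1 and 2 the change was -0.65 at 10 and -1.06 at 30 µg/kg.

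Mouse chromosome 7 carries a cluster of close relatives of Klk1, the Klk1b genes. No stretch of 150 bases, the read length, of the longest Klk1 transcript occurs in another kallikrein transcript, while 14.4% of its 75-base stretches do, so single reads trimmed short may be shared. Klk1b5 fell at 30 µg/kg from 3.10 ± 0.407 to 1.62 ± 0.655 CPM (SD, n = 5), and the largest Klk1b5 count in any library was 81 against 11422 to 47783 for Klk1, so its fall is uncertain as a separate measurement.

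Some connecting tubule marker genes also fell. Of 4 listed, Calb1 (calbindin, a calcium buffer) and Slc8a1 (a sodium-calcium exchanger) fell at 10 and 30 µg/kg, Calb1 by a log2 fold change of -0.47 ± 0.08 and -0.53 ± 0.08 and Slc8a1 by -0.60 ± 0.11 and -0.67 ± 0.11. Slc8a1 was also called at 3 µg/kg (-0.43 ± 0.11, adjusted p = 0.041), where Klk1 was not. Trpv5 and S100g, the others listed, were not called at 10 or 30 µg/kg. None of the 4 was at 0 in all libraries. Their summed level was 1222 to 1625 CPM in vehicle, 1028 to 1211 CPM at 10 and 1053 to 1231 CPM at 30 µg/kg. Some markers of other distal segments fell as well. At 10 and 30 µg/kg these were 2 and 1 of 3 for the distal convoluted tubule. For collecting duct principal cells they were 2 and 3 of 5 tested. Of 5 intercalated cell markers, 2 fell at 10 µg/kg, and at 30 µg/kg 1 fell and 1 rose. The sums of these lists overlapped vehicle at both doses, except intercalated cells at 10 µg/kg (250.9 to 273.4 against 283.9 to 327.0 CPM). None of the 4 thick ascending limb markers was called at either dose. The part of these markers in the Klk1 result was not tested. The genes whose log2 CPM followed that of Klk1 most closely over the 40 libraries were Khk, ketohexokinase (r = 0.906), Cryzl2 (r = 0.891) and Susd2 (r = 0.888). These are descriptions over libraries that share the dose series.

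Ace encodes the enzyme that makes angiotensin II and degrades kinins. The vehicle libraries read 91.3, 86.9, 222.7, 269.1 and 234.6 CPM. At 10 µg/kg they read 125.9, 142.0, 189.8, 137.4 and 160.2 CPM, and at 30 µg/kg 114.7, 74.5, 40.3, 87.0 and 80.6 CPM. All 5 libraries at 30 µg/kg lay below vehicle replicates 3 to 5 and below every library at 10 µg/kg, and 3 of them were below the lowest vehicle library. The 25 libraries from 0.03 to 3 µg/kg read 163.8 to 287.6 CPM.

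For Ace the fitted log2 change at 30 µg/kg was -1.19 ± 0.24 (adjusted p = 0.000505). Ace and Klk1 were the 2 of 7 genes called there, both lower, where 15.9% of all genes were called, 8.39% higher and 7.55% lower. At 10 µg/kg the change was -0.26 ± 0.23 (adjusted p = 0.67), and from 0.03 to 3 µg/kg it was 0.14 to 0.44, none of it called, and -0.29 to 0.02 without vehicle replicates 1 and 2. Without vehicle replicates 1 and 2, Ace was also called at 10 µg/kg (-0.68, adjusted p = 0.0374) and was -1.61 at 30 µg/kg (adjusted p = 2.79e-07). Fitted on the vehicle and 30 µg/kg groups alone, the 30 µg/kg call ended (-1.19, adjusted p = 0.13).

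The slope of Ace over dose ranks was -0.14 ± 0.04 per step (adjusted p = 0.00416), and Ace and Klk1 were the 2 genes of 7 with a called trend. Of all genes, 19.8% had one, 11.0% higher and 8.84% lower. The Ace trend was not called without the 30 µg/kg group (-0.058, adjusted p = 0.323). Ace was lower at 30 than at 10 µg/kg (-0.93 ± 0.23, adjusted p = 0.0237), and again Ace and Klk1 were the 2 of 7 called, beside 2.7% of all genes. This call ended when replicate 3 or 5 at 10 µg/kg, or replicate 3 or 4 at 30 µg/kg, was left out (adjusted p 0.0525 to 0.125), and in the fit of those 2 groups alone (adjusted p = 0.285), in which none of 15693 genes was called by edgeR and 1567 had an unadjusted p under 0.05, against 654 genes called by DESeq2 in a fit of all groups.

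The labels number the mice in a lower and a higher run of numbers, whose meaning they do not give. In the higher run, Ace read 234.6 and 269.1 CPM in vehicle against 80.6 and 87.0 CPM at 30 µg/kg. In the lower run, which holds vehicle replicates 1 and 2, the ranges were 86.9 to 222.7 and 40.3 to 114.7 CPM and overlapped. Klk1 did not overlap within either run, at 1558 to 2064 against 774.4 to 996.5 CPM in the lower and 1539 to 1809 against 826.1 to 861.2 CPM in the higher.

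**Figure D2:**
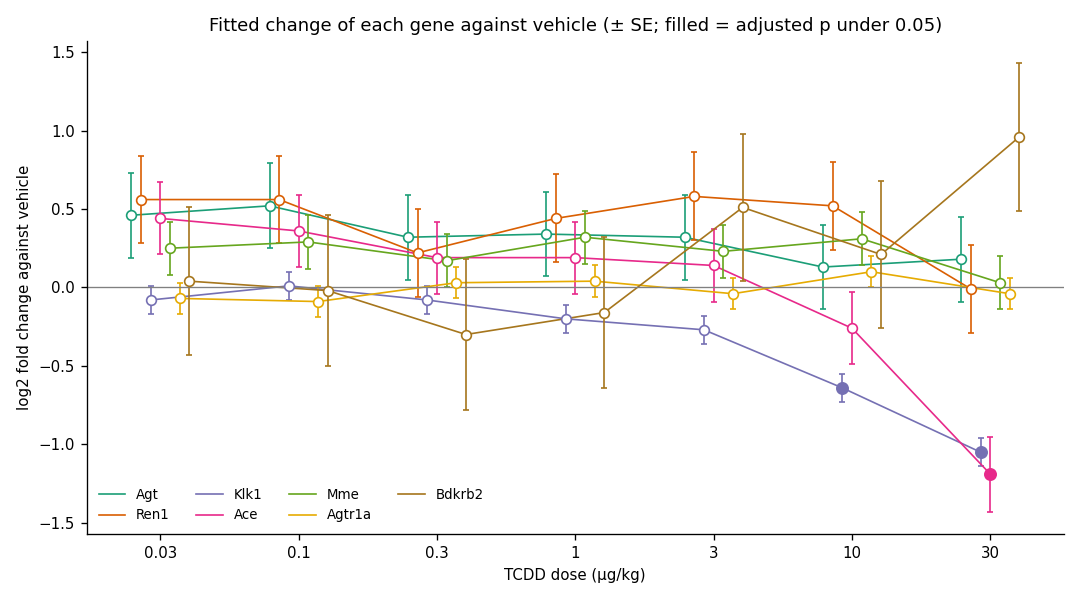
Fitted log2 fold change against vehicle (y axis) with its SE at each dose (x axis, µg/kg) for the 7 genes, filled where the adjusted p was under 0.05. Klk1 at 10 and 30 µg/kg and Ace at 30 µg/kg are the 3 filled points, at -0.64, -1.05 and -1.19.

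Some markers of the S3 segment of the proximal tubule fell at 30 µg/kg, as Ace did. Of 4 S3 markers, Slc7a13, Cyp7b1 and Slc5a8 fell at 30 µg/kg, and Cyp7b1 read 11.1 to 113.6 CPM there against 228.6 to 287.8 CPM in vehicle replicates 3 to 5 and 26.4 and 31.4 CPM in vehicle replicates 1 and 2. The summed S3 level was 559.7 to 1606 CPM in vehicle and 1310 to 1551 CPM at 10 µg/kg, where no S3 marker was called. In replicates 1 to 5 at 30 µg/kg it was 1214, 648.2, 169.6, 348.9 and 459.9 CPM. Of these libraries, Ace was highest in replicate 1 and lowest in replicate 3. In replicates 2, 5 and 4, where the S3 sum fell in that order, Ace rose from 74.5 to 80.6 and 87.0 CPM. Of 5 markers of the earlier proximal segments (S1 and S2), 3 fell, and their sum was 10777 to 14088 CPM in vehicle and 6937 to 12247 CPM at 30 µg/kg. Within groups this S1 and S2 sum did not follow Ace. Among vehicle libraries it was highest in replicates 1 and 2, at 13515 and 14088 CPM. At 30 µg/kg it was highest in replicate 2, at 12247 CPM. No marker of either list was at 0 in all libraries. Endothelial cells also carry Ace, and 6 of 8 endothelial markers rose at 30 µg/kg, with sums of 509.2 to 599.7 CPM in vehicle and 710.8 to 818.5 CPM at the dose. The part of these markers in the Ace result was not tested. About 5.58% of the exonic bases of Ace overlap Gm11651 on the opposite strand, which the counting did not separate. The genes most alike to Ace over the 40 libraries were Csad, an enzyme of taurine synthesis (r = 0.97), Galns, a lysosomal sulfatase (r = 0.965), and Bdh1, an enzyme of ketone body metabolism (r = 0.957).

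**Figure D3:**
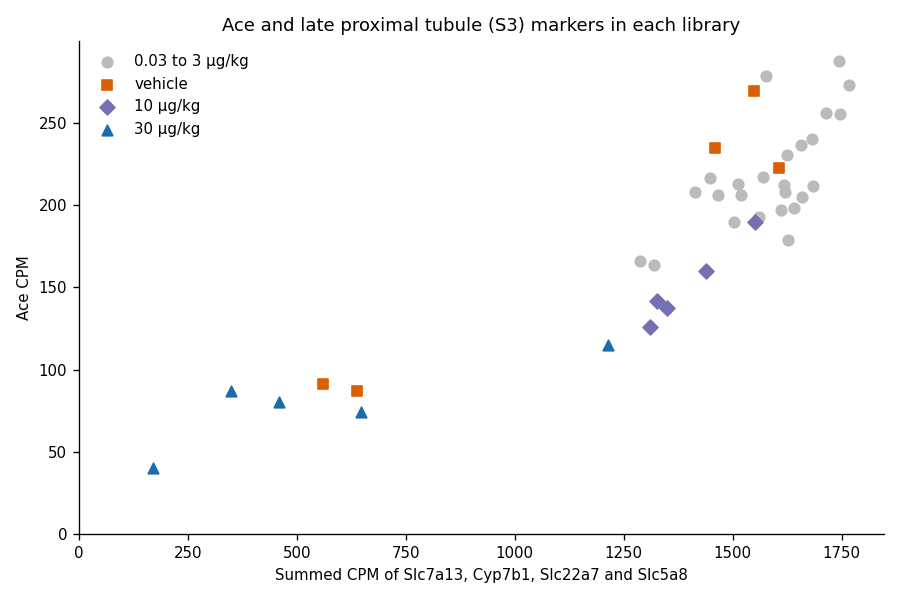
Ace CPM (y axis) against the summed CPM of 4 S3 markers (x axis) in the 40 libraries, marked by dose group. The 2 vehicle squares at lower left, 91.3 and 86.9 CPM of Ace, are replicates 1 and 2, and they lie among the 30 µg/kg libraries on both axes.

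Agt encodes angiotensinogen, the precursor of all angiotensins, which in the kidney is made mostly in the proximal tubule. It read 20.5, 24.9, 66.7, 78.6 and 84.6 CPM in vehicle and 66.1, 31.6, 34.3, 92.8 and 85.3 CPM at 30 µg/kg. The 30 libraries of the other doses lay between 51.5 and 84.4 CPM. The low values were vehicle replicates 1 and 2 and, at 30 µg/kg, replicates 2 and 3. The log2 fold change was 0.18 ± 0.27 at 30 µg/kg (adjusted p = 0.733) and 0.13 to 0.52 at the other doses, with no call. Without vehicle replicates 1 and 2 it was -0.31 at 30 µg/kg (adjusted p = 0.388) and -0.34 to 0.04 at the other doses, and the slope, -0.02 ± 0.03 per step with all libraries (adjusted p = 0.78), became a called fall of -0.05 (adjusted p = 0.0433). Slc22a13 was the gene most alike to Agt (r = 0.95), followed by Irx2 and Wfdc15b (both r = 0.919).

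Ren1, renin, read 14.1, 21.2, 30.7, 56.1 and 41.5 CPM in vehicle and 34.1, 21.0, 13.3, 33.9 and 58.3 CPM at 30 µg/kg. The other doses gave 30.4 to 68.9 CPM. The groups overlapped throughout, and the libraries lowest in Ren1 were again vehicle replicates 1 and 2 and replicates 2 and 3 at 30 µg/kg. For Ren1 the fitted log2 change was -0.01 ± 0.28 at 30 µg/kg (adjusted p = 0.989) and 0.22 to 0.58 at the other doses, and the lowest adjusted p of these was 0.385. Without vehicle replicates 1 and 2 it was -0.40 at 30 µg/kg (adjusted p = 0.411) and -0.17 to 0.19 at the other doses. The slope was 0.00 ± 0.03 per step with all libraries. The most alike genes were Csf1r, a macrophage growth factor receptor (r = 0.875), Irx1 (r = 0.855) and Nccrp1 (r = 0.854). Over the 40 libraries Ren1 followed Agt with r = 0.78, and these libraries include the 4 low ones.

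Mme encodes neprilysin. It read 100.0, 108.9, 154.2, 140.9 and 216.1 CPM in vehicle and 182.9, 149.9, 89.2, 130.5 and 180.4 CPM at 30 µg/kg, and 117.1 to 209.7 CPM at the other doses. The groups overlapped at every dose. The log2 fold change was 0.03 ± 0.17 at 30 µg/kg (adjusted p = 0.947) and -0.22 without vehicle replicates 1 and 2 (adjusted p = 0.502). Slc12a1, which marks the thick ascending limb, was the gene most alike to it (r = 0.881), followed by Slco4c1 (r = 0.864) and Slc5a3 (r = 0.84).

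Agtr1a and Bdkrb2, the receptors among the 7 genes, gave no call. Agtr1a, the main type 1 angiotensin receptor of the mouse kidney, kept the narrowest range of the 7 genes relative to its level, at 49.9, 48.2, 40.8, 46.0 and 42.7 CPM in vehicle and 42.0, 55.8, 50.2, 35.2 and 39.1 CPM at 30 µg/kg. All 40 libraries lay between 34.9 and 55.8 CPM, and at the top dose its fitted change on the log2 scale was -0.04 ± 0.10 (adjusted p = 0.871). Agtr1a was the highest of its group in both libraries with adrenal cortex genes. It read 54.2 CPM (next 51.0) at 0.03 and 49.9 CPM (next 48.5) at 1 µg/kg. The genes most alike to it reached only r = 0.651 (1700067K01Rik), 0.616 (5430427N15Rik) and 0.615 (Ppp1r16b).

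Bdkrb2, the B2 kinin receptor, had 2 to 55 counts per library. It read 0.807, 1.06, 1.60, 0.92 and 0.68 CPM in vehicle and 2.05, 1.30, 1.56, 3.09 and 1.95 CPM at 30 µg/kg. At 30 µg/kg 3 libraries were above the highest vehicle library. The log2 fold change was 0.96 ± 0.47 (adjusted p = 0.171), and the slope was 0.12 ± 0.05 per step (adjusted p = 0.0875). Neither was called. The slope was called without replicate 1 at 0.03 µg/kg (adjusted p = 0.0382), which is 1 of the 2 libraries with adrenal cortex genes. Bdkrb2 was the highest of its group in both of these libraries, at 2.14 CPM (next 1.28) and 2.24 CPM (next 1.0). Its most alike genes, Cyb561a3 (r = 0.606), Inf2 (r = 0.58) and Mt1 (r = 0.578), were no closer than those of Agtr1a.

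At the doses up to 3 µg/kg, none of the 7 genes was called by edgeR, nor by DESeq2. In edgeR the unadjusted p was under 0.05 for Klk1 at 1 and 3 µg/kg and for Ren1 at 3 µg/kg (log2 fold change 0.58 ± 0.28, adjusted p = 0.557). In DESeq2 it was so for these and also for Ren1 at 0.03 and 0.1 µg/kg and Mme at 1 µg/kg. Of all genes, 0.0% were called at 0.03 and at 0.1 µg/kg, 0.00577% at 0.3, 0.513% at 1 and 1.09% at 3 µg/kg. At 0.03 and 0.1 µg/kg 983 and 960 genes had an unadjusted p under 0.05, and DESeq2 called 5 and 0. The median log2 fold change of the 7 genes was 0.13 to 0.29 from 0.03 to 10 µg/kg and -0.01 at 30 µg/kg, and that of all tested genes lay between -0.005 and 0.011. The medians of the 7 genes rested on vehicle replicates 1 and 2, without which they were -0.16 to 0.06 from 0.03 to 10 µg/kg and -0.31 at 30 µg/kg.

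Beyond the 7, 49 further genes of the pathways were listed, and 36 had enough reads to be tested. At 30 µg/kg 6 of the 36 rose and 4 fell, at 10 µg/kg 2 rose and none fell, and over the dose ranks 6 rose and 5 fell. The shares called among all genes were 15.9% at 30 µg/kg, 4.82% at 10 µg/kg and 19.8% in the trend. The median log2 change of the 36 genes was -0.02 at 30 µg/kg and their median slope was -0.01 per step. Of the 13 not tested, Ctsg, Klk1b26 and Mrgprd had at most 3 counts in every library.

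The 6 genes that rose at 30 µg/kg were Cpm, Serping1, Cpn1, Cpn2, Ece1 and Nos1. Cpm (carboxypeptidase M, a membrane enzyme that removes the last residue of kinins) rose from 37.8 ± 4.22 CPM in vehicle to 62.8 ± 8.78 at 10 and 63.2 ± 9.45 at 30 µg/kg (SD, n = 5). All 5 libraries at each dose were above the highest vehicle library, and its fitted log2 change was 0.73 ± 0.11 (adjusted p = 9.75e-06) and 0.74 ± 0.11 (adjusted p = 4.73e-06). Serping1 (C1 inhibitor, which blocks plasma kallikrein) rose from 66.0 ± 11.5 to 102.1 ± 11.7 and 100.0 ± 11.9 CPM, again without overlap. Its log2 fold changes were 0.63 ± 0.10 and 0.60 ± 0.10 (adjusted p = 3.89e-05 and 4.61e-05). Markers of other cell types rose at the same doses. At 10 and 30 µg/kg these were 7 and 6 of 8 endothelial, 5 and 3 of 6 podocyte, 4 and 4 of 6 mesangial and smooth muscle and 3 and 3 of 4 macrophage genes. Summed macrophage markers read 46.8 to 102.1 CPM in vehicle, 111.9 to 132.6 at 10 and 77.9 to 121.8 at 30 µg/kg, and summed podocyte markers 275.8 to 395.2, 426.1 to 566.4 and 395.2 to 560.2 CPM. Summed mesangial and smooth muscle markers read 121.4 to 151.2, 170.9 to 190.4 and 143.6 to 208.1 CPM in the same order. The low macrophage sums in vehicle were those of replicates 1 and 2, at 51.1 and 46.8 CPM. Vehicle replicates 3 to 5 read 92.6 to 102.1 CPM, within the macrophage range at 30 µg/kg. None of these markers was at 0 in all libraries, and their part in the rises of Cpm and Serping1 was not tested. Between 10 and 30 µg/kg the log2 difference was 0.01 ± 0.11 for Cpm and -0.03 ± 0.10 for Serping1, neither of them called.

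Cpn1, the catalytic subunit of carboxypeptidase N, rose at 30 µg/kg from 99.3 ± 21.5 to 141.8 ± 35.6 CPM (log2 fold change 0.51 ± 0.12, adjusted p = 0.00251). Its vehicle replicates 1 and 2, at 124.9 and 120.5 CPM, were above the other 3, at 80.2 to 85.7 CPM. Cpn2, its regulatory subunit, had at most 46 counts in a library and rose from 0.175 ± 0.132 to 0.965 ± 0.721 CPM (log2 fold change 2.45 ± 0.79, adjusted p = 0.0258), a call that ended without vehicle replicates 1 and 2 (adjusted p = 0.107). Ece1, endothelin-converting enzyme, rose from 87.0 ± 12.5 to 110.0 ± 14.8 CPM (0.34 ± 0.09, adjusted p = 0.00561).

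The 4 genes that fell at 30 µg/kg were Mas1, Anpep, Xpnpep2 and Klk1b5. Mas1, the receptor of angiotensin 1-7, read 1.56, 1.62, 3.11, 2.50 and 1.87 CPM in vehicle and 1.25, 0.905, 0.746, 0.505 and 1.38 CPM at 30 µg/kg, all below vehicle (log2 fold change -1.13 ± 0.28, adjusted p = 0.00311). Anpep, aminopeptidase N of the proximal brush border, fell from 209.4 ± 15.6 to 157.0 ± 29.8 CPM (-0.42 ± 0.08, adjusted p = 0.000318). Xpnpep2, an aminopeptidase that cleaves bradykinin, fell from 15.2 ± 2.03 to 11.2 ± 2.12 CPM (-0.44 ± 0.14, adjusted p = 0.024). Its call ended without vehicle replicates 1 and 2 (adjusted p = 0.152) and in the stranded count column (adjusted p = 0.476). That column held 50.4 to 51.0% of the counts of both strands in each library. The fit of vehicle and 30 µg/kg alone also ended the call, and in these 3 settings the log2 change ran from -0.44 to -0.23. Why the call ended was not tested. Klk1b5 is given above, at -0.92 ± 0.28 (adjusted p = 0.0182). Xpnpep1, the cytosolic relative, fell in the trend alone (-0.03 ± 0.01 per step, adjusted p = 0.0273), and this ended without vehicle replicates 1 and 2 (adjusted p = 0.214).

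Nos1 and Ptgs2, regulators of renin release at the macula densa, the tubule sensor beside the juxtaglomerular cells, were called. Nos1, neuronal nitric oxide synthase, read 1.01 to 1.53 CPM in vehicle and 2.10, 1.13, 3.32, 3.54 and 4.58 CPM at 30 µg/kg (log2 fold change 1.26 ± 0.33, adjusted p = 0.00542). Ptgs2, cyclooxygenase 2, rose in the trend (0.15 ± 0.05 per step, adjusted p = 0.0303) and not at 30 µg/kg (1.04 ± 0.47, adjusted p = 0.129), with 1 to 43 counts per library. Its trend was not called without vehicle replicates 1 and 2 (adjusted p = 0.0832), nor was that of Nos1 (0.11 ± 0.04 per step, adjusted p = 0.0207, and 0.0501 without them). Pappa2, another macula densa marker, read 17.7, 12.3 and 14.4 CPM in replicates 3 to 5 at 30 µg/kg, 1.48 and 1.02 CPM in replicates 1 and 2, and 0.131 to 2.18 CPM in vehicle (3.30 ± 0.59, adjusted p = 0.000113). The macula densa list is Nos1, Ptgs2 and Pappa2, so its sum is not separate from these values. That sum was 2.19 to 3.65 CPM in vehicle and 3.0 to 21.6 CPM at 30 µg/kg. Pappa2 made up 17.7 of the 21.6 CPM in replicate 3. None of the 3 juxtaglomerular markers was called, and their sum was 3.51 to 10.0 CPM in vehicle and 4.75 to 15.2 CPM at 30 µg/kg. By edgeR, the unadjusted p at 30 µg/kg was above 0.05 for all 3 of them.

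The calls of Cpm and Serping1 at 10 and 30 µg/kg and in the trend held under every setting run. In fits of vehicle and 30 µg/kg alone, the calls of Mas1, Klk1b5, Xpnpep2, Ece1, Cpn1 and Pappa2 ended (adjusted p 0.0725 to 0.126). Without the 30 µg/kg group, the trends of Anpep, Mas1, Klk1b5, Ece1, Nos1, Xpnpep1 and Ptgs2 were not called (adjusted p 0.0567 to 0.542). The call at 30 µg/kg ended without replicate 3 at that dose for Klk1b5 (adjusted p = 0.0676). It ended for Cpn2 without vehicle replicate 2, 3 or 4 or replicate 4 or 5 at the dose (adjusted p up to 0.0896), and for Xpnpep2 without vehicle replicate 1, 2 or 5 or replicate 1, 4 or 5 at the dose (adjusted p up to 0.0796). The trend calls of Ece1, Nos1, Xpnpep1 and Ptgs2 each ended when 1 of 2 to 4 libraries was left out, and replicate 4 or 5 at 30 µg/kg was among these for each gene.

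**Figure D4:**
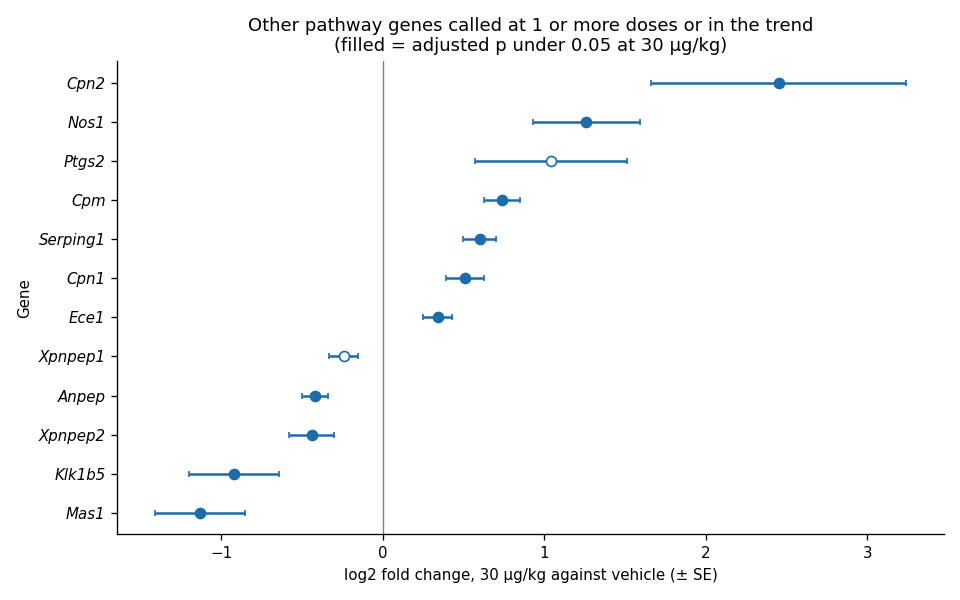
Fitted log2 fold change at 30 µg/kg against vehicle (x axis) with its SE for the 12 further pathway genes that were called at 1 or more doses or in the trend (y axis), filled where called at 30 µg/kg. Cpn2, at 2.45, has the widest error, and Ptgs2 and Xpnpep1, drawn unfilled, were called in the trend alone.

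Several further genes gave no call in any comparison with vehicle. Kng2, a kininogen and the most abundant of the 49 genes, read 260.0 ± 67.5 CPM in the vehicle group and 258.2 ± 65.5 at 30 µg/kg (SD, n = 5). Without vehicle replicates 1 and 2, the vehicle level was 305.3 ± 33.0 CPM (SD, n = 3). With all libraries, the fitted log2 change of Kng2 at 30 µg/kg was -0.01 ± 0.12 (adjusted p = 0.975). Atp6ap2, the prorenin receptor (0.00 ± 0.07), Agtrap, which binds the type 1 receptor (0.12 ± 0.08), and Enpep, which trims angiotensin II (-0.18 ± 0.12), were not called.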

How the data were processed

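Right kidneys of 40 mice were profiled by RNA sequencing, and each library's group and dose came from its labels, which give no replicate numbers, so replicates were numbered in order of deposition. Per the submitters' processing notes, FastQC 0.11.7, Trimmomatic 0.39, STAR 2.7.3a and DESeq2 were used. Both GRCm39 and mm10 are named there, so no gene coordinates are given beyond the RefSeq promoters. The authors deposited whole-number read counts per gene in unstranded and stranded columns, and the unstranded count column was used. Identifiers were named with GENCODE M21 (52083 of 55359), and the 3276 unnamed ones held 0.216 to 1.28% of gene counts. All 40 libraries entered 1 edgeR 4.0.16 quasi-likelihood fit (R 4.3.3, limma 3.58.1) with 8 groups, TMM scaling and edgeR's filter on low counts, leaving 17345 genes. A gene was called at a Benjamini-Hochberg adjusted p under 0.05 over these genes. A linear trend used dose ranks. The script was tested on simulated data. The 7 genes and all lists were chosen with earlier results of these data known. Named further pathway genes are those called at 1 or more doses or in the trend, and for each of the 7 genes the 3 with the highest r of log2 CPM (prior count 2). Alternatives included DESeq2 1.42.0. Leaving out vehicle replicates 1 and 2, and a thick ascending limb marker term, were chosen after seeing the data. Mice are separate animals, and p-values cover the spread between them.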

Additional observations from a re-analysis of the deposited data

Results flagged for a closer look

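In groups of 5, a library was singled out when its gap to the nearest other library exceeded 0.71 of the group's range. Over 152 groups (the 7 genes and the 12 further called pathway genes at 8 doses) 5 values were singled out, where chance alone gives about 8. Klk1 in replicate 4 at 0.03 µg/kg was the highest of its group at 1908 CPM, with the next at 1684 CPM. Cpn2 in replicate 1 at 1 µg/kg was highest at 0.787 CPM, with the next at 0.311 CPM. Anpep in replicate 1 at 0.3 µg/kg was lowest at 200.3 CPM, with the next at 212.8 CPM. Klk1b5 in replicate 3 at 30 µg/kg was lowest at 0.475 CPM, with the next at 1.81 CPM, and without that library its fall at 30 µg/kg was no longer called (adjusted p = 0.0676). Nos1 in replicate 3 at 1 µg/kg was highest at 2.44 CPM, with the next at 1.33 CPM.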

How the results depend on the processing

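No paired analysis was possible because the labels give no replicate numbers that are shared between groups. The falls of Klk1 at 10 and 30 µg/kg and its trend were called under every setting run. Of the 7 genes, 2 were called at 10 µg/kg without vehicle replicates 1 and 2 (Klk1 and Ace), 1 at 30 µg/kg and 0 at 30 against 10 in fits of only the groups compared, and 1 in the trend without the 30 µg/kg group. With 1 library left out, 1 to 2 were called at 30 against 10. Counts over all genes moved as follows. At 0.03 µg/kg, 1 gene was called with the thick ascending limb term, 5 with DESeq2 and 0 to 1 with 1 library left out. At 0.3 µg/kg DESeq2 called 2. Without vehicle replicates 1 and 2, 56, 108 and 515 genes were called at 1, 3 and 10 µg/kg. In fits of only the groups compared, 113, 969 and 0 were called at 3, at 30 and at 30 against 10. The trend without the 30 µg/kg group called 1399. With 1 library left out, 119 to 199 were called at 3 µg/kg and 146 to 1194 at 30 against 10.

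Some signs reversed, none of them called. From 0.03 to 10 µg/kg, 15 of the 42 fitted changes of the 7 genes against vehicle had another sign without vehicle replicates 1 and 2. In the same setting the 30 µg/kg change was -0.31 for Agt, -0.22 for Mme and 0.04 for Agtr1a, and the Mme slope was -0.016. With the thick ascending limb term, the Agt slope was 0.007, the Ren1 slope 0.016 and the Mme change at 30 µg/kg -0.01. In the stranded column, Ren1 at 30 µg/kg was 0.05, its slope 0.006, and Agtr1a at 30 µg/kg 0.01. The Ren1 slope was 0.001 with label number run as a term and 0.048 without the 30 µg/kg group, and there the Cpn1 slope was -0.016. With 1 library left out, the 30 µg/kg change ranged from -0.03 to 0.38 for Agt, -0.35 to 0.27 for Ren1, -0.08 to 0.22 for Mme and -0.13 to 0.04 for Agtr1a, and the slope from -0.019 to 0.017 for Ren1 and -0.006 to 0.017 for Mme. The cause was not tested. Bdkrb2, at 2 to 55 counts per library, is the gene of the 7 with the fewest reads, and Cpn2 (at most 46 counts) and Ptgs2 (1 to 43 counts) had fewer.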

Other observations

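In 2 libraries (the first mouse at 0.03 µg/kg and the fourth at 1 µg/kg), adrenal cortex genes summed to 581.7 and 623.7 CPM. Akr1b7, which the juxtaglomerular cell and the adrenal cortex of the mouse both express, reached 33.6 CPM at its highest, against a median of 0.804 CPM over the 40 libraries. Ren1 read 40.7 CPM in the first of these, the lowest of its group, and 55.8 CPM in the other, the highest of its group.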
